A study of Rattus norvegicus with 6 samples.

Results

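Complement is a protein cascade of innate immunity built around the cleavage of C3 and C5. It can be started by antibody or injured cells through C1 (the classical route), by sugar-binding lectins, or by its own slow turnover on surfaces that are not protected (the alternative route). The small fragments C3a and C5a call in and activate leukocytes through the receptors C3AR1 and C5AR1, while soluble and membrane-bound inhibitors keep the cascade off host cells. Most circulating complement is made in the liver, and many tissues, the heart among them, also transcribe some of its genes. Ischemia followed by reperfusion is a setting in which complement activation has long been studied.

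The genes described here were C1s, C2, C3, Cfb, Cfd, C3ar1, C5ar1, Serping1 and Cd55, 9 complement genes chosen by symbol from a table of 28293 genes. Of these, 7 had a row in the table, and C2 (the protease of the classical and lectin C3 convertase) and C5ar1 were not analysed here. The choice of the 9 genes rested on their function and not on a measured value, although results of these data were known when the list was made. The study sequenced total RNA of myocardial tissue from wild-type male rats in 2 groups of 3. In the I/R group the left anterior descending coronary artery was tied for 30 min and the heart was taken after 6 h of reperfusion, and the sham labels carry the same times. The labels describe anesthesia and a left thoracotomy, and they name no strain, transgene or other treatment. Rat age and the place of the sampled tissue relative to the ischemic zone are not given in the sources used here, and the labels do not tie samples to litters or days. The p-values measure only the spread between these samples.

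The values are FPKM, fragments scaled to gene length and to library size, so levels can be set side by side between genes. Whole read numbers could be recovered from the steps of the FPKM values, and the libraries held 36.8 to 39.4 M recovered reads in the I/R group and 42.2 to 49.8 M in the sham group. Mitochondrially encoded mRNAs took 80.1% to 86.2% of the summed FPKM in the sham libraries and 61.8% to 71.5% in the I/R libraries, and FPKM are shares of a library. Over the 10942 genes tested, the median I/R over sham difference was 0.29 on the log2 scale, and it was −0.46 when the libraries were rescaled without those mRNAs. Changes are therefore also given below as distances from that median, which for Serping1 was 0.46 before and 0.43 after the rescaling. Cardiomyocyte markers were present in every library, with a summed FPKM of 3226 to 10524 in the sham group and 21184 to 30388 in the I/R group. Of these, 5 of 7 rose, and 4 after that rescaling. Neutrophil markers summed to 13.0 to 18.0 FPKM across the sham libraries and 29.5 to 87.1 in the I/R group. Of the 5 tested, 4 were higher, and 3 after the rescaling. Over all genes tested 25.5% rose, and 7.25% after the rescaling. The summed FPKM of the macrophage and monocyte markers overlapped between the groups, while 1 of 9 rose and 3 fell. Over all genes tested 7.36% fell. In bulk tissue, fewer cells of a type and less RNA per cell cannot be told apart.

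The upstream sequences of C3 and Cfd are shown because C3 had the largest relative change of the 7 measured genes, while Cfd, which acts with C3 in the alternative route, did not pass the test. Each is the 250 bases before the RefSeq start, on the minus strand of build GRCr8, with every match to the C/EBP motif TTNNGNAA on either strand in capitals. C/EBP factors are known as regulators of acute-phase genes.
C3, chr9:2201340-2201589: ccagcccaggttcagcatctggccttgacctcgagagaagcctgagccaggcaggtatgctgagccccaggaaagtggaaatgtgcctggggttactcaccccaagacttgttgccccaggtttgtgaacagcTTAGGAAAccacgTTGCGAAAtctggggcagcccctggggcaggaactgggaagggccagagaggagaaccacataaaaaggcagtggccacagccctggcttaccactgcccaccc
Cfd, chr7:10465497-10465746: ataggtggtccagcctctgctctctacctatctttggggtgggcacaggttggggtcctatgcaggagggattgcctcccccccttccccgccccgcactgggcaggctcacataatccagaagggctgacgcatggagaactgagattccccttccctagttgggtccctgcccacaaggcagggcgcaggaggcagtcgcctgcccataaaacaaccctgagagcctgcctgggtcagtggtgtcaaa
The C3 window held the C/EBP letters at 117 to 110 and at 104 to 97 bases before the start, and the Cfd window held none. These letters are common, and 37.2% of 33469 windows of the same length held them on one strand or the other. The table of windows matched 4 of the 9 genes (C3, Cfd, C3ar1 and Cd55), and only the C3 window held C/EBP letters. The other motifs searched on both strands in these 4 windows were STAT (TTCNNNGAA, in 7.67% of all windows), NF-kB (in 6.33%) and the TATA box (TATAAA, in 12.9%), with no match, and AP-1 (TGANTCA, in 6.34%), which matched only C3ar1. A match describes letters and not a site in use.

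Among the 7 measured genes, mean levels ran from 0.147 FPKM (C3, sham) to 52.6 FPKM (Serping1, I/R). Serping1, the gene of the C1 inhibitor, had the highest level in all 6 libraries, and C3 and C3ar1 had the lowest. Of the 5 genes that passed the filter (a mean of at least 0.5 FPKM over the 6 libraries), Serping1 rose and C1s, Cfb, Cfd and Cd55 did not pass the test (limma on log2(FPKM + 0.1), Benjamini-Hochberg adjusted over all genes tested, threshold 0.05). Over all 10942 genes tested, 25.5% rose and 7.36% fell, so 1 of 5 higher is close to the background share. C3 and C3ar1 lay under the filter and are described from their reads.

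**Figure D1:**
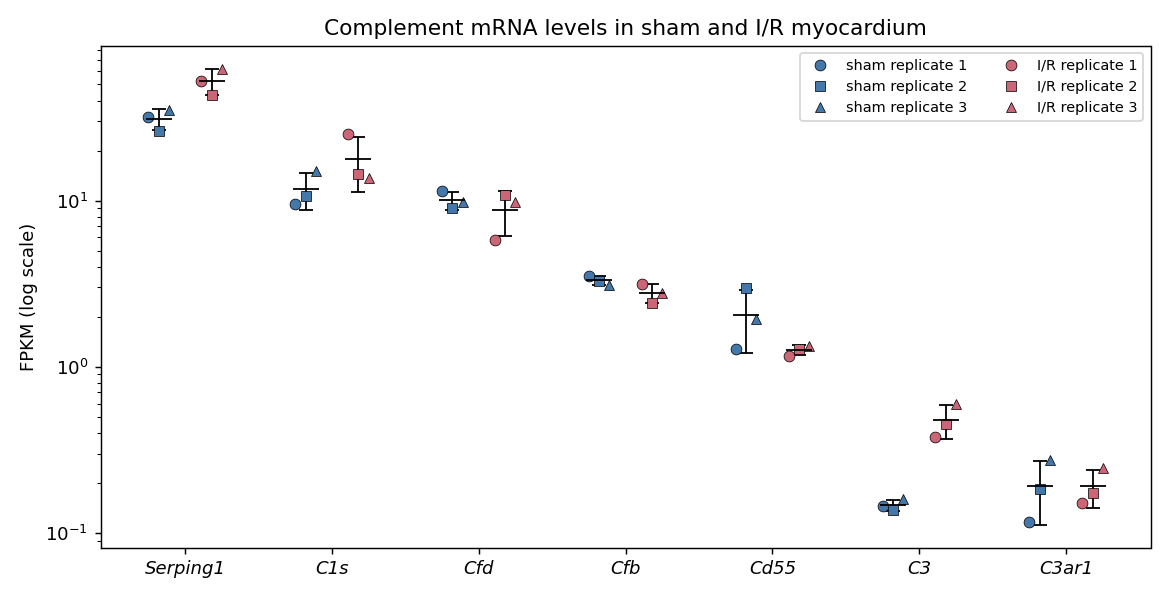
FPKM on a log scale (y axis) of the 7 measured complement genes (x axis), with a point for each library (blue sham, red I/R) and bars for the mean ± SD of 3 libraries. The groups separate for Serping1 (26.3 to 34.9 against 43.0 to 62.1 FPKM) and for C3 (0.138 to 0.159 against 0.378 to 0.595 FPKM) and overlap for the other 5 genes.

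C1s is the protease of the C1 complex that cleaves C4 and C2 and so starts the classical route. C1s (ENSRNOG00000011971) measured 9.51, 10.6 and 15.0 FPKM in the sham libraries and 25.2, 14.5 and 13.6 FPKM in the I/R libraries. I/R replicate 1 stood highest, and the other 2 I/R libraries lay below the highest sham library. The means were 11.7 ± 2.88 and 17.8 ± 6.45 FPKM (SD, n = 3 each), the log2 fold change was 0.57 (SE 0.30, limma adjusted p = 0.166), and the distance from the median of all genes was 0.28. The sign depended on the scaling, with −0.21 after rescaling without the mitochondrially encoded mRNAs and −0.17 after quantile normalization. Neither direction passed the test.

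The partners of C1s in the C1 complex are its activating protease C1r and the recognition chains C1qa, C1qb and C1qc, which bind antibody and dying cells. C1qb was the only one of these that passed the test. It measured 20.3, 18.6 and 13.9 FPKM in the sham libraries and 26.7, 34.6 and 29.1 FPKM in the I/R libraries, without overlap. Its log2 fold change was 0.78 (SE 0.24, limma adjusted p = 0.0321), which is 0.49 above the median of all genes, and it was −0.00079 after rescaling without the mitochondrially encoded mRNAs, −0.062 after quantile normalization and −0.015 on recovered reads with totals lacking those mRNAs. The call was lost without sham replicate 2 or 3 or I/R replicate 2 or 3, with adjusted p between 0.0698 and 0.133 in those fits.

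C1qa measured 9.45 to 10.2 FPKM in the sham libraries and 11.0 to 15.1 FPKM in the I/R libraries (log2 fold change 0.37, limma adjusted p = 0.215). C1qc ranged from 14.9 to 20.9 FPKM across the sham libraries and from 23.9 to 29.9 FPKM in the I/R group (0.51, limma adjusted p = 0.117). C1r ranged from 25.2 to 29.4 FPKM and from 32.2 to 51.1 FPKM (0.48, limma adjusted p = 0.157), with its highest value, as for C1s, in I/R replicate 1. All 3 C1q chains and C1r were higher in every I/R library than in any sham library, as were 37.2% of all genes tested. The ratio of C1s to C1r was 0.424 ± 0.0948 in the sham group and 0.445 ± 0.0502 in the I/R group and overlapped (two-sided exact permutation p = 0.7). C4a and C4b encode near-identical forms of C4, the substrate of C1s, and reads could be split between them. C4a measured 1.50, 0.876 and 3.05 FPKM in the sham libraries and 1.27, 0.596 and 0.773 FPKM in the I/R libraries (−0.86, limma adjusted p = 0.151). C4b was lower still, with means of 0.984 ± 0.717 and 0.478 ± 0.394 FPKM (−0.93, limma adjusted p = 0.238).

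C3 is the protein on which all the routes converge, and its cleavage gives the C3a fragment and the C3b that tags surfaces. C3 (ENSRNOG00000046834) was low but higher in every I/R library, at 0.145, 0.138 and 0.159 FPKM across the sham libraries and 0.378, 0.455 and 0.595 FPKM in the I/R group. The means were 0.147 ± 0.011 and 0.476 ± 0.110 FPKM (SD, n = 3 each), a ratio of 3.23. The groups did not overlap (two-sided exact permutation p = 0.1, the smallest p that 3 against 3 allows), as held in the upward direction for 31.9% of the 13709 genes with a mean of at least 10 reads.

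The depth behind C3 was 32, 36 and 40 reads in the sham libraries and 73, 94 and 116 reads in the I/R libraries, although the I/R libraries were the smaller ones. The 95% Poisson intervals, which cover counting error only, ended at or below 54.5 reads in the sham group and began at or above 57.2 reads in the I/R group. Because the mean over the 6 libraries lay under the filter, C3 was not tested in the analysis of FPKM. On the recovered reads, by a test chosen after the data were seen (limma voom), C3 rose by a log2 fold change of 1.66 (SE 0.42, limma adjusted p = 0.0111), where 21.4% of 13709 genes rose and 7.56% fell. When single libraries were left out it stayed between 1.49 and 1.81, with adjusted p between 0.0148 and 0.0442. With library totals that leave out the mitochondrially encoded mRNAs it was 0.84 and the call was lost (adjusted p = 0.169, with 0.0079 to 0.169 over its alternatives on reads), where 6.18% of genes rose and 31.8% fell. In the FPKM fit without a filter C3 passed the test (adjusted p = 0.034), where 11.4% of genes rose and 3.32% fell. Relative to the median of all genes it was 1.44 with all reads and 1.42 without those mRNAs.

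**Figure D2:**
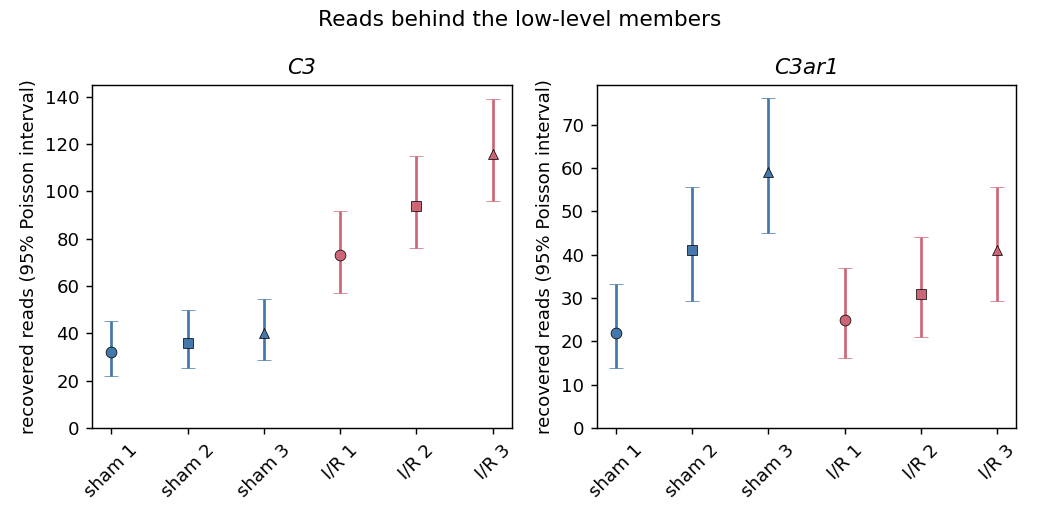
Recovered reads (y axis) of C3 (left) and C3ar1 (right) in each library, with exact 95% Poisson intervals of the counting error. The C3 intervals of the sham libraries end at or below 54.5 reads and those of the I/R libraries begin at or above 57.2, while the C3ar1 intervals overlap.

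The alternative route needs factor B, which supplies the protease of its C3 convertase, and factor D, the protease that activates factor B. Neither gene passed the test. Cfb (ENSRNOG00000051235) measured 3.51, 3.29 and 3.11 FPKM in the sham libraries and 3.14, 2.41 and 2.79 FPKM in the I/R libraries. I/R replicate 1 lay just above the lowest sham library, so the groups overlapped. The means were 3.30 ± 0.202 and 2.78 ± 0.369 FPKM (SD, n = 3 each), with a log2 fold change of −0.25 (SE 0.21, limma adjusted p = 0.393), or −0.54 relative to the median of all genes. After rescaling without the mitochondrially encoded mRNAs the change was −1.01 and passed the test (limma adjusted p = 0.014), as did 26.1% of all genes in that direction.

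Cfd (ENSRNOG00000033564), also known as adipsin for its high level in fat cells, measured 11.4, 8.98 and 9.79 FPKM in the sham libraries and 5.80, 10.8 and 9.81 FPKM in the I/R libraries. I/R replicate 1 stood apart as the lowest, and the other 2 I/R libraries fell within the sham range. The log2 fold change was −0.23 (SE 0.27, limma adjusted p = 0.540) and turned to 0.041 without I/R replicate 1. After rescaling without the mitochondrially encoded mRNAs it was −1.01 (limma adjusted p = 0.021), where 26.1% of all genes fell. Adipoq, which defines fat cells, was listed at 0 in I/R replicate 1 and also in sham replicate 3, where Cfd measured 9.79 FPKM. It measured 1.72 FPKM in I/R replicate 2 and at most 0.235 FPKM in the other libraries. The summed adipocyte list was highest in I/R replicate 1 (34.4 FPKM), where 34.2 FPKM of it came from Aqp7, an aquaglyceroporin gene, and its part in the Cfd values was not tested.

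Properdin (Cfp), which stabilises the alternative convertase, was also not past the threshold, at 3.45 to 5.36 FPKM across the sham libraries and 2.28 to 4.61 FPKM in the I/R group (−0.34, limma adjusted p = 0.398). C5, the next component after C3, had 5, 12 and 0 reads in the sham libraries and 0, 0 and 1 reads in the I/R libraries, too few for a difference to be detectable at this depth. The ratio of C3 to Cfb, the 2 parts of the alternative convertase, was 0.0448 ± 0.00558 in the sham group and 0.174 ± 0.0484 in the I/R group, 3.89-fold higher and without overlap. Its two-sided exact permutation p was 0.1, or 0.25 after Benjamini-Hochberg adjustment over the 5 ratios compared. The ratio restates the C3 and Cfb values given above and is not separate evidence. The ratio of Cfb to Cfd overlapped between the groups (0.330 ± 0.0311 against 0.350 ± 0.170, two-sided exact permutation p = 1).

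C3AR1 is the receptor of the C3a fragment on leukocytes and other cells. C3ar1 (ENSRNOG00000009211) was as low as C3 and its groups overlapped, with 0.116, 0.183 and 0.274 FPKM in the sham libraries and 0.151, 0.175 and 0.245 FPKM in the I/R libraries. These values rested on 22, 41 and 59 reads and on 25, 31 and 41 reads, and the sham range enclosed the I/R range. The means were 0.191 ± 0.0793 and 0.190 ± 0.0491 FPKM, and on recovered reads the log2 fold change was 0.03 (SE 0.52, limma adjusted p = 0.968). The sign changed when single libraries were left out (−0.25 to 0.33). Of the other complement receptors, C5ar2, a C5a receptor that does not couple to G proteins, measured 0.468 to 0.795 FPKM across the sham libraries and 0.651 to 1.10 FPKM in the I/R group (0.33, limma adjusted p = 0.480).

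Serping1 encodes the C1 inhibitor, a secreted serpin that inactivates C1r and C1s and also the contact system protease kallikrein. Serping1 (ENSRNOG00000007457) measured 31.9, 26.3 and 34.9 FPKM in the sham libraries and 52.6, 43.0 and 62.1 FPKM in the I/R libraries. All 3 I/R libraries lay above all 3 sham libraries, as for 37.2% of all genes tested. The means were 31.0 ± 4.36 and 52.6 ± 9.56 FPKM (SD, n = 3 each), with a log2 fold change of 0.75 (SE 0.24, limma adjusted p = 0.0375, two-sided exact permutation p = 0.1). This was 0.46 above the median of all genes, and 28.2% of the genes tested had a larger log2 fold change.

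The Serping1 call was kept without sham replicate 1 (adjusted p = 0.0453, where 23.4% of all genes rose) and lost when any other library was left out (0.0519 to 0.135). It was also lost after median centring (0.50, adjusted p = 0.162, where 18.5% of all genes rose), and kept with the replicate number as a block (adjusted p = 0.014, where 28.2% rose and 8.18% fell). The log2 fold change turned to −0.031 after rescaling without the mitochondrially encoded mRNAs, to −0.22 after quantile normalization and to −0.043 on recovered reads with totals lacking those mRNAs. Fibroblast markers, a list of genes of stromal cells, summed to 420 to 581 FPKM across the sham libraries and 605 to 669 FPKM in the I/R group. Of these, 2 of 7 rose, beside 25.5% of all genes tested. After rescaling without the mitochondrially encoded mRNAs 0 of 7 rose and 2 fell, where 7.25% and 26.1% of all genes did. The part of these markers in the Serping1 and C1s values was not tested. Of the fibroblast list Tcf21 rose (means 6.23 and 16.1 FPKM, limma adjusted p = 0.0068), as did Col1a1 (39.7 and 74.6 FPKM, limma adjusted p = 0.013). The log2 fold change was above 0 for 6 of 7, beside a median of 0.29 over all genes. Pdgfra was at −0.36 (means 4.43 and 3.43 FPKM, limma adjusted p = 0.272), and Dcn measured 202 and 203 FPKM. The ratio of Serping1 to C1s, an inhibitor to its target, was 2.72 ± 0.550 in the sham group and 3.21 ± 1.26 in the I/R group and overlapped (two-sided exact permutation p = 0.7).

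CD55, also called decay-accelerating factor, is a membrane protein that breaks up the C3 convertases on host cells. Cd55 (ENSRNOG00000003927) measured 1.28, 2.96 and 1.93 FPKM in the sham libraries and 1.17, 1.28 and 1.34 FPKM in the I/R libraries. The sham libraries were spread widely and the I/R libraries lay close together at the sham minimum. The means were 2.06 ± 0.845 and 1.26 ± 0.0875 FPKM (SD, n = 3 each), and the log2 fold change of −0.59 (SE 0.30) did not pass the test (limma adjusted p = 0.158). It passed without sham replicate 1 (−0.87, limma adjusted p = 0.0455, where 8.05% of all genes fell). After median centring it also passed (−0.84, limma adjusted p = 0.043, where 14.2% fell). The same held after rescaling without the mitochondrially encoded mRNAs (−1.33, limma adjusted p = 0.019, where 26.1% fell). Without sham replicate 2 it was −0.30.

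The ratio of Cd55 to C3, an inhibitor of the convertase against its main component, did not overlap between the groups. It was 8.88, 21.5 and 12.1 in the sham libraries and 3.08, 2.82 and 2.25 in the I/R libraries, so that the sham mean was 5.21 times the I/R mean. Its two-sided exact permutation p was 0.1, or 0.25 adjusted over the 5 ratios. The ratio restates the Cd55 and C3 values given above and is not separate evidence.

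Of the other inhibitors reported, 1 passed the test. Clu, the gene of clusterin, a chaperone that also blocks the terminal complex, rose from 139, 91.3 and 71.3 FPKM to 420, 233 and 276 FPKM (log2 fold change 1.63, SE 0.32, limma adjusted p = 0.00655). It was 0.85 after rescaling without the mitochondrially encoded mRNAs (limma adjusted p = 0.024), and the call was lost after quantile normalization (0.62, limma adjusted p = 0.063).

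Cd59, which blocks the membrane attack complex, measured 21.6 to 30.4 FPKM across the sham libraries and 24.5 to 28.4 FPKM in the I/R group (−0.06, limma adjusted p = 0.863). Cr1l, the rodent Crry gene and a relative of Cd55, measured 2.29 to 2.78 FPKM and 2.02 to 3.003 FPKM (−0.08, limma adjusted p = 0.821). After rescaling without the mitochondrially encoded mRNAs both passed the test as lower. Cd59 was at −0.84 (limma adjusted p = 0.019) and Cr1l at −0.83 (limma adjusted p = 0.048). In that scaling 26.1% of all genes fell, and relative to the median of all genes Cd59 was −0.38 and Cr1l −0.37. Cfi, the protease that cleaves C3b, had 8, 2 and 0 reads in the sham libraries and 0, 1 and 0 reads in the I/R libraries. Cd46 was not analysed here.

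The place of each gene within its own library does not depend on how libraries are scaled. Serping1 held percentiles 94.3 to 96.4 among the genes tested in the sham group and 93.8 to 95.6 in the I/R group, and C1s held 84.1 to 91.3 and 84.4 to 88.3, so both overlapped. Cfb lay at percentiles 54.2 to 61.1 in the sham group and 44.0 to 48.7 in the I/R group. Cfd lay at 82.4 to 86.6 and 63.2 to 80.5, and Cd55 at 29.6 to 50.2 and 20.9 to 27.6. Cfb, Cfd and Cd55 ranked lower in every I/R library than in any sham library, 3 of 5 genes beside 25.0% of all genes tested.

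**Figure D3:**
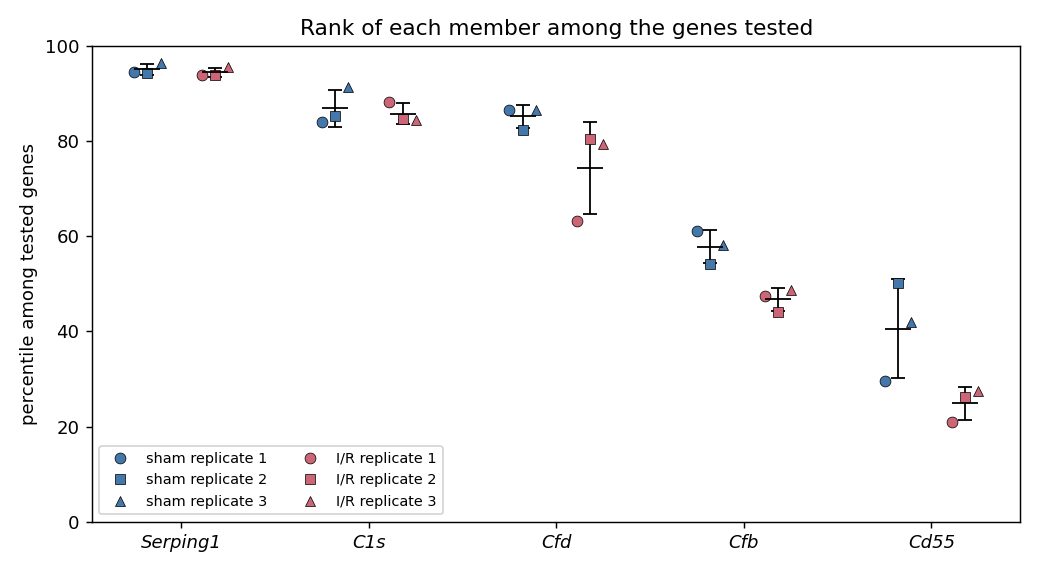
Percentile of 5 complement genes among the 10942 genes tested in the same library (y axis), one point per library (blue sham, red I/R), with the mean ± SD of 3 libraries. The groups overlap for Serping1 and C1s and are separate for Cfd, Cfb and Cd55, where the I/R percentiles are lower, as they are for 25.0% of all genes tested.

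The summed FPKM of the 7 genes was 57.8, 52.5 and 65.1 in the sham libraries and 88.4, 72.6 and 90.5 in the I/R libraries. Within that sum, the share of Serping1 was 52.9% ± 2.54 in the sham group and 62.4% ± 5.37 in the I/R group (SD, n = 3 each) and did not overlap. The share of C3 was 0.253% ± 0.00934 and 0.571% ± 0.125, higher in each I/R library. The shares of Cfd (17.3% ± 2.36 against 10.8% ± 4.17), Cfb (5.71% ± 0.811 against 3.32% ± 0.240) and Cd55 (3.61% ± 1.80 against 1.52% ± 0.226) were lower in each I/R library than in any sham library. The shares of C1s (19.9% ± 3.28 against 21.2% ± 6.81) and C3ar1 overlapped. These shares add up to a whole, so a larger share of 1 gene makes the others smaller.

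**Figure D4:**
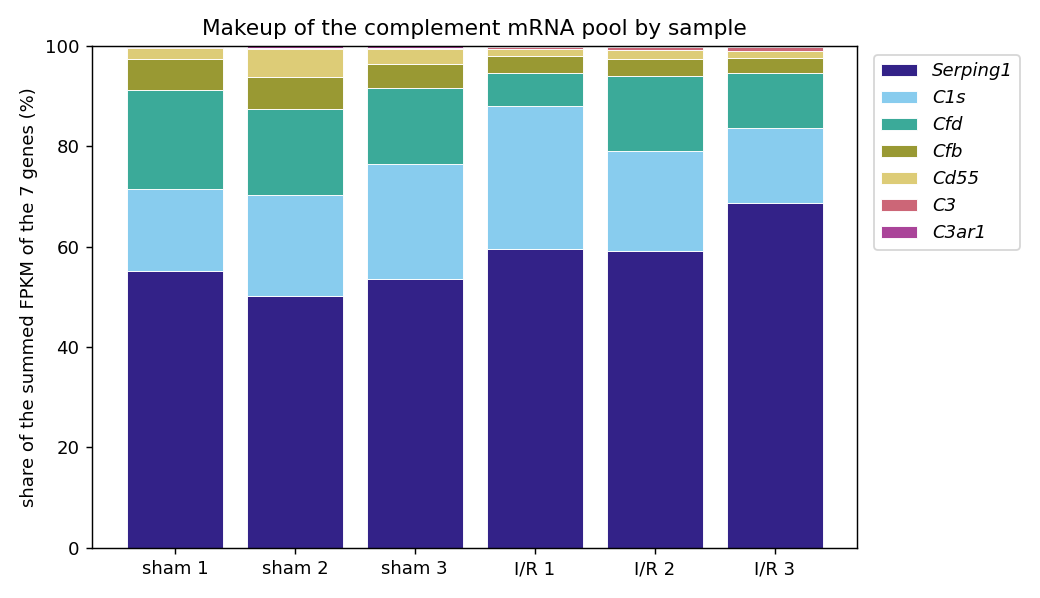
Share of each gene in the summed FPKM of the 7 measured complement genes (y axis, percent) in the 6 libraries (x axis). Serping1 takes 50.1% to 55.1% of the sum in the sham libraries and 59.2% to 68.6% in the I/R libraries, and the bands of Cfd, Cfb and Cd55 are narrower in the I/R libraries.

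The wider complement list held 62 symbols, of which 50 were listed in the table and 26 were tested, the 5 above among them. In it 4 genes rose (C1qb, Serping1, Clu and C1qbp) and 22 did not pass the test, so 4 of 26 rose against 25.5% of all genes tested. The list had a median log2 fold change of 0.32, beside 0.29 over all genes. After rescaling without the mitochondrially encoded mRNAs, 2 rose (Clu and C1qbp) and 10 fell, where 7.25% of all genes rose and 26.1% fell, with a median of −0.44 beside −0.46.

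By role, 1 of 12 tested starters of the classical and lectin routes rose. In the C3, C5 and alternative route group 0 of 3 tested genes passed the test. Of the receptors 1 of 5 rose and of the inhibitors 2 of 6, where 25.5% of all genes tested rose. All 3 alternative route genes that were tested (Cfb, Cfd and Cfp) had log2 fold changes below 0. For each of them, 75.3% to 79.2% of all genes tested had a larger one. By limma on FPKM 0 passed the threshold, and 3 were lower after rescaling, where 26.1% of all genes fell. None of the terminal components passed the filter, and C8a, C8b and C9 were listed at 0 in all 6 libraries. C1qbp, whose product binds the C1q heads but is mainly a mitochondrial matrix protein, rose from 43.3, 27.6 and 23.0 FPKM to 137, 94.7 and 85.5 FPKM (log2 fold change 1.77, SE 0.30, limma adjusted p = 0.00408), and it kept its call in each of 19 alternatives, with 0.80 after quantile normalization and 0.99 after rescaling without the mitochondrially encoded mRNAs. The highest level among the starters, named after its values were seen, belonged to the lectin Colec11, at 127 to 157 FPKM across the sham libraries and 130 to 162 FPKM in the I/R group.

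**Figure D5:**
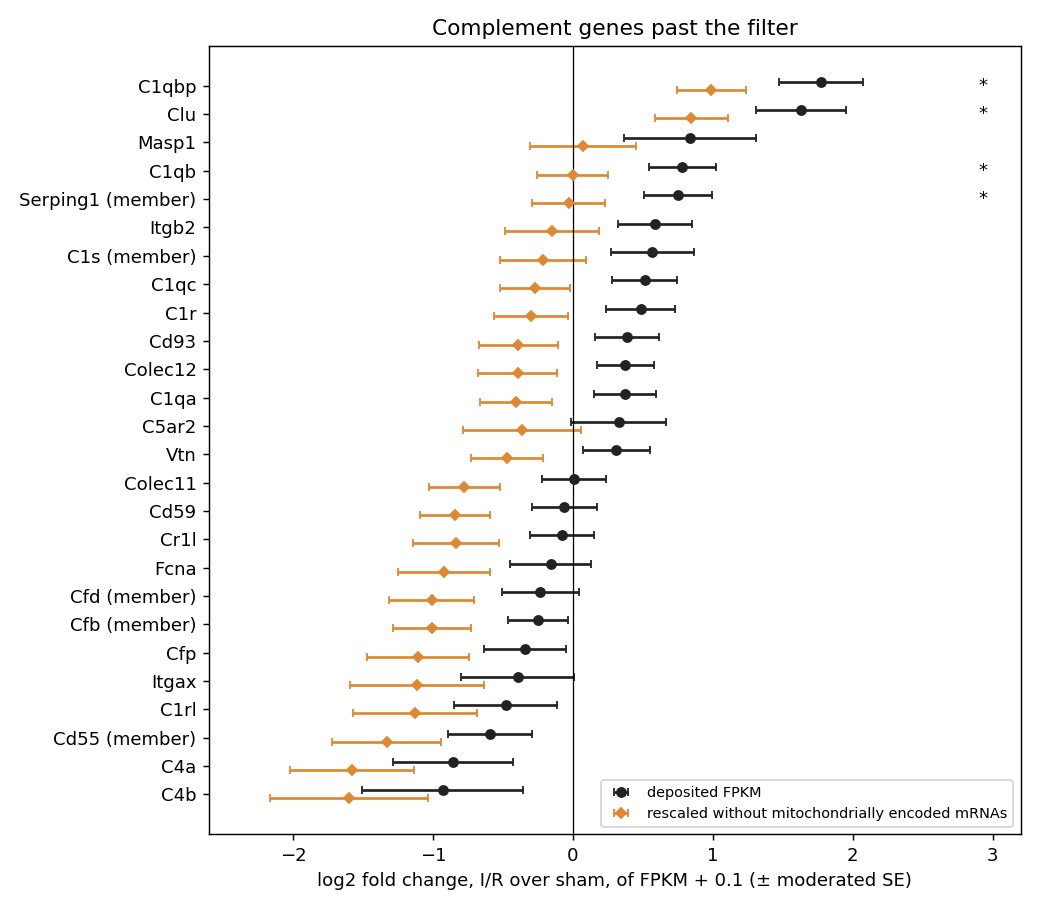
Log2 fold change of FPKM + 0.1, I/R over sham, with the moderated SE from limma, for the 26 complement genes tested, from the deposited values (black) and after rescaling without the mitochondrially encoded mRNAs (orange). Asterisks mark the 4 genes past the threshold on the deposited values, and the orange points lie to the left of the black ones, with Clu and C1qbp well above 0 in both and Serping1 and C1qb near 0 after rescaling.

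The markers of other cell types that could carry complement mRNA moved unevenly. In the macrophage and monocyte list, whose cells are a known source of C1q, Cd14 rose and Cd163, Mrc1 and Ccr2 fell. The other 5 did not pass the test. These 1 of 9 higher and 3 of 9 lower stand beside 25.5% and 7.36% of all genes tested. After rescaling without the mitochondrially encoded mRNAs 0 of 9 rose and 4 fell, where 7.25% and 26.1% of all genes did. The list had a summed FPKM of 55.6 to 79.8 in the sham group and 68.5 to 90.1 in the I/R group. The lymphocyte, endothelial and mesothelial lists also overlapped in summed level. Of the 3 lymphocyte markers tested, Cd3g fell (means 4.39 and 1.86 FPKM, limma adjusted p = 0.0141) and 2 did not pass the test. Most of the mesothelial sum was Wt1, at 3.64 to 6.45 FPKM (sham) and 4.55 to 7.77 FPKM (I/R). Msln of the same list had 13, 10 and 22 reads in the sham libraries and 1, 0 and 0 in the I/R libraries. In the liver list, the defining genes Serpina1 and Fga were listed at 0 in all 6 libraries and Alb measured at most 0.062 FPKM, while Ttr, a thyroid hormone carrier gene, rose (means 5.06 and 15.7 FPKM, log2 fold change 1.85, limma adjusted p = 0.0176). The list summed to 1.91 to 7.43 FPKM across the sham libraries and 12.6 to 17.8 FPKM in the I/R group. Most of that sum was Ttr, at 1.60 to 6.89 FPKM and 12.4 to 17.7 FPKM. Apoa1 of the same list was lower in every I/R library, at 0.244 to 0.604 FPKM (sham) and 0.022 to 0.093 FPKM (I/R). Apoc3 was above 0 only in sham replicate 2. The part of the neutrophil, macrophage and liver markers in the C3, C1qb and C3ar1 values was not tested.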

How the data were processed

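RNA-seq of myocardial tissue in 3 sham and 3 I/R samples was analysed, grouped by the sample titles. The authors deposited FPKM values per gene and library in 1 table of 30452 rat Ensembl rows, 7092 without a symbol. STAR and HTSeq are named in the submitters' processing notes, without versions. The genome build, annotation and strand setting are not given in the sources used here, and the library kit was stranded. Rows with the same symbol were summed. Every column was matched to a sample by its name.

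The I/R and sham libraries were contrasted on log2(FPKM + 0.1) with limma (version 3.58.1, R 4.3.3, lmFit and eBayes with trend). A gene entered if its FPKM averaged at least 0.5, which left 10942. Fold changes on this scale understate the change of low genes. P-values were Benjamini-Hochberg adjusted over those genes, with a threshold of 0.05. The study's text states no test for single genes. For single values and ratios, two-sided exact permutation tests were run in scipy 1.17.1, and these cannot go below 0.1. Whole reads were recovered from the FPKM steps within a tolerance of 0.005 for 100% of the 17863 rows above 0 in at least 2 libraries, and limma voom was run on them, with a minimum mean of 10 reads, as an alternative added after the data were seen. The recovered totals followed the relative depths of the libraries.

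Replicate numbers in the titles are shared between the groups. Same-numbered libraries deviated together, with correlations of 0.203, 0.117 and 0.118 across genes, each above the 0.1 set for pairing. Of the 6 pairs with different numbers, sham 3 with I/R 2 reached 0.120, above the same-numbered 0.117 and 0.118, and the other 5 lay below 0. By the rule on same-numbered pairs limma was also run with replicate number as a block. The main fit and the permutation tests used no block. The labels state no shared litter or day. The limma fit was tested on simulated data with 200 genes changed by 2 on the log2 scale. It recovered 73.0% of them in the right direction, with 9 false calls among 155. Smaller changes, such as the 0.75 of Serping1, were not simulated.

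The named genes are the 9 members, the wider list's genes past the threshold, and the genes that complete a complex or step with a member. The members and all lists were chosen with earlier results of these data known. C2 and C5ar1 were not analysed here, and 1 gene was left out of the wider list and is not reported here. Alternatives were other pseudocounts, filters, scalings, the trend, the block, the row kept per symbol, and leaving out each library. Promoter windows come from RefSeq (GRCr8), and gene positions were not paired with the Ensembl identifiers of the table.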

Additional observations from a re-analysis of the deposited data

How the results depend on the processing

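The counts of genes called depended on the scaling. Against 2790 genes higher and 805 lower, quantile normalization gave 1441 and 1559, rescaling without the mitochondrially encoded mRNAs 793 and 2857, and voom on recovered reads with totals lacking those mRNAs 847 and 4355. Median centring gave 1554 lower, TPM 504 and a mean FPKM of at least 5 gave 166. Leaving out each library gave 1528 to 2557 higher and 309 to 881 lower. The share of calls that were higher was 77.6%, and it was 91.9% at a mean of at least 5, 87.3% in TPM, 56.5% after median centring, 48.0% after quantile normalization and 21.7% and 16.3% without the mitochondrially encoded mRNAs on FPKM and on reads.

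Of the 9 genes, 5 were tested on filtered FPKM, and 7 without a filter and with voom. The count higher (1) became 2 without a filter, where 11.4% of all genes rose, and 2 with voom, where 21.4% rose. It was 0 after median centring (18.5% of all genes) and after quantile normalization. After the rescalings without mitochondrially encoded mRNAs it was also 0, where 7.25% of all genes rose on FPKM and 6.18% on reads. With each library left out it was 0 to 1. The count lower (0) became 1 after median centring, where 14.2% of all genes fell. It was 3 after both rescalings, where 26.1% of all genes fell on FPKM and 31.8% on reads. With each library left out it was 0 to 1, by limma in each case. In the wider list, the count higher (4) became 2 after median centring, 1 after quantile normalization, 2 after both rescalings and 2 to 4 with each library left out. The count lower (0 by limma, and 0 by unadjusted p under 0.05 and by voom) became 1 after median centring and 2 after quantile normalization. It was 10 of 26 tested after rescaling FPKM, and 12 of a larger number tested after rescaling reads, beside the same 26.1% and 31.8% of all genes. With each library left out it was 0 to 1.

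The log2 fold change of Serping1 was 0.50 after median centring, −0.22 after quantile normalization, −0.031 and −0.043 after the rescalings of FPKM and of reads, and 0.62 to 0.89 with each library left out. C1s reversed to −0.17 after quantile normalization and to −0.21 and −0.23 after the rescalings (0.29 to 0.76 with each library left out). Cfb passed the test at −1.01 and −1.06, and Cfd at −1.01 and −1.05, under the rescalings. With each library left out Cfb ran from −0.34 to −0.15 and Cfd from −0.40 to 0.041. Cd55 passed at −0.84 after median centring and at −1.33 and −1.44 after the rescalings, and ran from −0.87 to −0.30 with each library left out. C1qb was −0.062 after quantile normalization, −0.00079 and −0.015 after the rescalings, and 0.62 to 0.89 with each library left out. Untested on FPKM at 1.20, C3 gave 0.36 with a pseudocount of 1, 1.61 with 0.01, 0.95 after median centring, 0.65 after rescaling FPKM, 1.66 with voom and 0.84 with voom and rescaled totals, and 1.06 to 1.33 with each library left out (1.49 to 1.81 on reads). C3ar1 gave −0.51 and −0.75 after the rescalings, and −0.18 to 0.22 with each library left out (−0.25 to 0.33 on reads). Beyond the construction of each scaling, the cause was not tested.

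With the replicate block, 3085 genes were higher and 895 lower, Serping1 had a limma adjusted p of 0.014, and C3 on reads had a log2 fold change of 1.68 (limma adjusted p = 0.0079). In the wider list the block gave 5 genes higher in place of 4, with Masp1 (named after its values were seen) added at a limma adjusted p of 0.0281, and it changed no call of the 9 genes. The I/R minus sham difference in the share of C1s turned from 1.27 to −2.40 percentage points without I/R replicate 1 and to −0.45 without sham replicate 1, and that of Cd55 from −2.09 to −1.07 without sham replicate 2. The shares of the other 5 genes kept their direction with each library left out. Clu was 0.62 after quantile normalization and 0.85 and 0.84 after the rescalings, and C1qbp was 0.80, 0.99 and 0.98. Depth limited C3, C3ar1, C5 and Cfi, which rested on at most 116 reads in a library.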
